A study of Mus musculus with 6 samples.

Results

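The 10 genes described here are the 5 muscarinic acetylcholine receptor genes (Chrm1 to Chrm5), the 2 cholinesterases (Ache and Bche) and the 3 genes that make and load the transmitter (Chat, Slc5a7 and Slc18a3). They were taken by symbol from the 33696 genes of the deposited matrices, where each symbol matched 1 gene ID. At least 1 unique molecular identifier (UMI, the tag of 1 captured transcript) was counted in the kept cells for 9 of the 10, and for Slc18a3 none was.

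The data are single-cell RNA counts from the posterior eye cup of the mouse, the sclera, choroid and retina left after the cornea, lens, iris and ciliary body had been cut away. Tropicamide, an antagonist of muscarinic receptors used to widen the pupil and relax the ciliary muscle, was given to the right eyes of 12 mice as 6 drops spaced 10 min apart, and the tissue was taken after a wait of 1 h. Saline was dropped at the same spacing in 12 other mice, for which a drop number and a wait are not stated. The labels name no strain, age or sex. Right eyes were pooled by 4 into each library, so that each group held 3 libraries, and a library is the replicate. A p-value therefore measures the spread between pools, and a single animal cannot be followed.

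Acetylcholine is made from choline by choline acetyltransferase (Chat), taken into vesicles by Slc18a3 and cut by acetylcholinesterase (Ache), after which Slc5a7 returns the choline to the neuron. In the retina the known cholinergic neurons are the starburst amacrine cells. M1, M3 and M5 receptors (Chrm1, Chrm3, Chrm5) couple mainly to Gq proteins, phospholipase C and calcium release, and M2 and M4 receptors (Chrm2, Chrm4) to Gi proteins, which lower cyclic AMP. In vessels, muscarinic receptors of the endothelium are known for triggering relaxation of the vessel wall, and in the ciliary muscle M3 is the main receptor of contraction.

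After filtering, 60096 cells with 197095505 UMIs were kept, between 8705 and 11998 per library. They fell into 54 clusters, which were drawn without the 10 genes and without the 84 other genes of the acetylcholine pathway used below. A cluster that carried the markers of a cell type is called by that type with the ending "-like", which applied to 40 clusters, and 14 were left unnamed. Levels are given as CPM, the share of a gene in all UMIs of the summed cells of a cluster, scaled to a total of 1000000. Most cells were rod-like (49642). Ciliary or iris epithelium-like cells (82, cluster B29, Optc at 1022 CPM) and corneal or conjunctival epithelium-like cells (183, cluster B14, led by Krt12) were present although the front of the eye had been cut away. Smooth muscle-like cells numbered 163 (cluster B18, Acta2 at 9868 CPM). Whether these came from vessels or from the ciliary muscle was not tested. Of 65910 barcode sequences 522 occurred in more than 1 library. RNA released by broken cells was not removed. Levels are compared within 1 gene across clusters, because transcript length and the counting of introns could shift 1 gene against another. The exception is the pathway lists, where the highest genes of a class are named.

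Chrm2 (ENSMUSG00000045613), the Gi-coupled M2 receptor best known from the heart, was counted mostly in vessel-lining cells. Of its 1333 UMIs, 84.1% lay in endothelial-like cells, which numbered 1057 of 60096. These cells formed 3 clusters that differed in their Chrm2 level. Cluster B13 (301 cells) was led by Plvap, the gene of the diaphragm of fenestrated capillaries such as those of the choroid, with Igfbp3, Kdr and Emcn. Cluster B9 (365 cells) was led by Tmem252, Edn1 and Vwf, and cluster B8 (391 cells) by Spock2, Slco1a4, Abcb1a and Cldn5, genes known from vessels with a blood-retina or blood-brain barrier.

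In B13 the Chrm2 level was 319.5, 169 and 306 CPM in the 3 tropicamide libraries and 205, 253 and 169 CPM in the 3 saline libraries, a mean of 237 ± 66.5 (SD, n = 6). In B9 it was 202, 90.5 and 105 CPM after tropicamide and 64.1, 43.2 and 37.8 CPM after saline. These B9 values came from 91, 98 and 49 cells after tropicamide and 24, 17 and 86 after saline. Of the 220 Chrm2 UMIs of B9, 5 cells held 31.8%, and 1 cell held 30. In B8 it was 5.42, 5.46 and 0 CPM after tropicamide and 0 CPM in each saline library, from 7 UMIs in all. B13 stood above B8 in 6 of 6 libraries without overlap of their ranges, and so did B9, whereas the ranges of B13 and B9 overlapped. Plvap ran in the same order, with 3243 CPM in B13, 662 in B9 and 0.936 in B8. A Chrm2 UMI was found in 75.1% of B13 cells, 21.9% of B9 cells and 1.02% of B8 cells, at medians of 9252, 4140 and 5849 UMIs per cell. After cells were thinned to 1000 UMIs the shares were 21.3%, 9.76% and 0.256%. Thinned shares, here and below, cover only cells with at least 1000 UMIs, which were 49738 of the 60096 kept cells. In rod-like cells, at a median of 2092 UMIs, the share was 0.0383% without thinning.

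Outside the endothelium Chrm2 rested on few cells. Cluster B41, a group of 35 unnamed cells led by Adarb2, Cntn5 and Zfp804b, held 48 UMIs in 15 cells (229 CPM), and its libraries ran from 19.6 to 239.8 CPM in the 4 with at least 5 cells. Cone bipolar-like B20, from a class of interneurons that relay cone signals, had 41.5 CPM, but 31 of its 35 UMIs came from 5 cells. The mean of its libraries was 36.8 CPM and 21.6 CPM without tropicamide library 1. Pericyte-like B17, the contractile cells of capillaries, had 33.4 CPM, with 32 of 35 UMIs from 5 of 169 cells. Smooth muscle-like B18 had 3 UMIs (2.06 CPM).

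**Figure D1:**
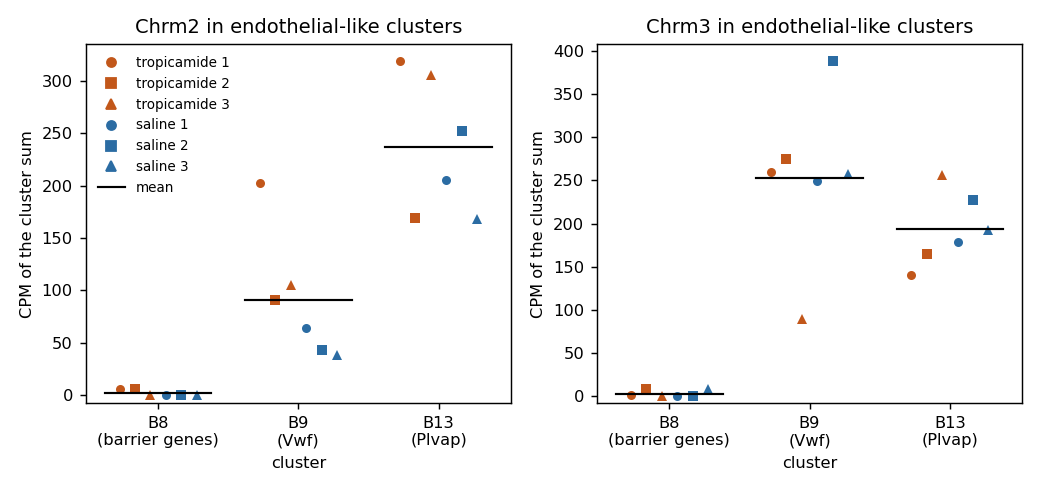
Chrm2 (left) and Chrm3 (right) in the 3 endothelial-like clusters, as CPM of the cluster sum (vertical axis), with 1 point per library (orange tropicamide, blue saline) and the mean as a bar. Both receptors are near 0 in B8 and reach means of 237 CPM (Chrm2) and 193 CPM (Chrm3) in B13, and in B9 the 3 tropicamide points of Chrm2 lie above the 3 saline points. The saline points of B9 rest on 24, 17 and 86 cells.

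Chrm3 (ENSMUSG00000046159), the Gq-coupled M3 receptor, had 4058 UMIs and was spread over more cell types. Its highest levels lay in small neuronal clusters. Cone bipolar-like cluster B31 (74 cells), led by Grik1, a kainate receptor of OFF bipolar cells, had 1358, 1727 and 1805 CPM after tropicamide and 1889 and 1384 CPM after saline, where saline library 2 had 1 cell and is left out. A Chrm3 UMI was present in 91.9% of its cells at the deposited depth and in 72.5% after thinning to 1000 UMIs. The range of B31 did not overlap that of the next cluster of at least 50 cells, B28, which reached 1066 CPM. Plvap was at 192 CPM in B31 and ran from 0 to 1057 CPM over 5 libraries. In endothelial-like B13 Plvap was at 3243 CPM and Chrm3 at 171 CPM. The source of the Plvap RNA in B31 and its part in the Chrm3 level were not tested.

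Cluster B40 (41 unnamed cells, led by Il1rapl2, Hs3st4 and Cdh9) had 2187 CPM of Chrm3, with a UMI in 40 of 41 cells and a mean of 12.3 UMIs per positive cell. Its 4 libraries with at least 5 cells ran from 1132 to 3694 CPM and overlapped those of B31. The other cone bipolar-like clusters were far lower, B20 at 88.8 CPM (17.1 to 165) and B19 at 43.5 CPM (0 to 119.5). Rod bipolar-like cells (B21), which relay rod signals, had 9 UMIs in 134 cells, 8 of them in saline library 1. Cone-like B12 had 1 UMI in 327 cells. Thus within the bipolar-like cells Chrm3 separated B31 from B19, B20 and B21 in each of the 5 libraries with at least 5 B31 cells, since the lowest B31 value of 1358 CPM lay above the highest of the others at 165 CPM.

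Cluster B28 (91 cells), unnamed because it carried markers of amacrine and ganglion cells together, had 263, 344.5 and 529 CPM of Chrm3 after tropicamide and 1066, 219.5 and 115 CPM after saline. The groups overlapped, and a Chrm3 UMI was found in 48 of 91 cells. Among them, 5 cells held 38.5% of the UMIs.

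In the endothelium Chrm3 followed the same division as Chrm2. In B9 the level was 260.0, 274 and 89.3 CPM after tropicamide and 249.9, 389 and 257 CPM after saline. In B13 it was 140.1, 164 and 256 CPM after tropicamide and 179, 227 and 193 CPM after saline. In B8 it was 1.80, 8.19 and 0 CPM after tropicamide and 0, 0 and 8.30 CPM after saline, below B9 and B13 in 6 of 6 libraries. At least 1 UMI of both receptors was found in 136 of 301 B13 cells, of Chrm2 alone or with Chrm3 in 226, of Chrm3 alone or with Chrm2 in 172, and of neither in 39. In B9, 51 of 365 cells had both. Lymphatic endothelial-like cells (B42, 35 cells) had 207 CPM of Chrm3 from 15 cells.

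Muscle and glia followed at lower levels. Smooth muscle-like B18 had 130 Chrm3 UMIs, 89.2 CPM, from 14 of 163 cells, and 5 cells held 70.0% of them. Its libraries gave 129, 2.99 and 131 CPM after tropicamide and 0, 0 and 157 CPM after saline, so the level did not repeat between libraries. Müller glia-like B11 (331 cells) was detected in 6 of 6 libraries, at 103, 28.3 and 40.2 CPM after tropicamide and 42.7, 75.0 and 27.9 CPM after saline. The second Müller glia-like cluster, B16, had no UMI of any of the 10 genes, where its median of 1025 UMIs per cell and 3 counts as the limit of a count of 0 allow up to 15.5 CPM. Cluster B1 (864 unnamed cells led by Smoc1, Serpine2, Chil1 and Myoc) was steadier, at 34.9, 37.9 and 73.6 CPM after tropicamide and 47.7, 54.1 and 56.5 CPM after saline. In rod-like cells Chrm3 was at 0.938 CPM, with a UMI in 0.201% of cells.

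**Figure D2:**
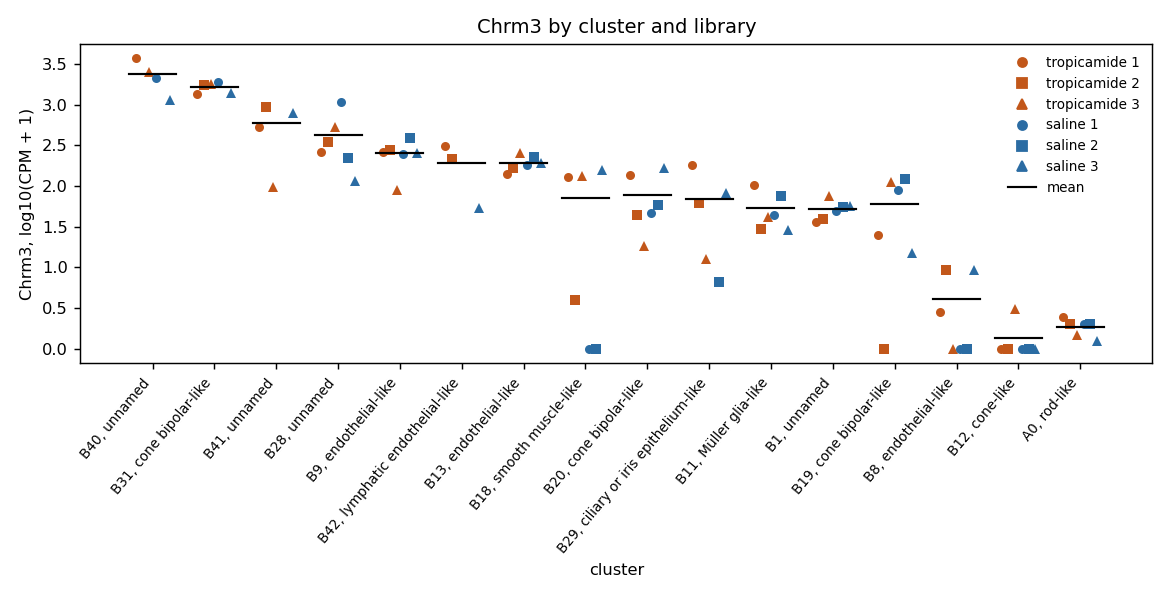
Chrm3 by cluster (horizontal axis) as log10(CPM + 1) of the cluster sum, with 1 point per library of at least 5 cells (orange tropicamide, blue saline) and the mean CPM on the same scale as a bar. Unnamed B40 and cone bipolar-like B31 lie above 1000 CPM in every library shown, and smooth muscle-like B18 has 2 saline libraries at 0.

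Chrm1 (ENSMUSG00000032773), the Gq-coupled M1 receptor, had 114 UMIs and was highest in ciliary or iris epithelium-like B29. Its level there was 11.01, 27.4 and 16.5 CPM after tropicamide and 16.7 and 27.2 CPM in saline libraries 2 and 3, and saline library 1 had 4 such cells. A UMI was found in 25 of 82 B29 cells (30.5%), at a median of 12678 UMIs per cell, and in 4.22% after thinning. The next clusters were B28 at 3.43 CPM and retinal pigment epithelium-like B35 at 3.17 CPM, and the range of B29 overlapped that of B28, which reached 12.8 CPM. Chrm3 was counted in the same cluster at 75.3 CPM, from 14 cells, but 1 cell held 71 of its 122 UMIs and 5 cells held 84.4%. Its libraries ran from 5.57 to 178 CPM.

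Chrm5 and Chrm4 were close to the limit of detection. Chrm5 (ENSMUSG00000074939), another Gq-coupled receptor, had 31 UMIs, of which 29 lay in fibroblast-like cells, the matrix-making cells of sclera and choroid. Fibroblast-like B4 had 1.37, 1.25 and 0.814 CPM after tropicamide and 1.07, 2.28 and 1.23 CPM after saline, and B2 had 15 UMIs in 14 of 842 cells. Both clusters were deeply sampled, at medians of 15917 and 14785 UMIs per cell, and thinning to 1000 UMIs left a share of 0 in each. Chrm4 (ENSMUSG00000040495), the Gi-coupled M4 receptor, had 2 UMIs in 2 rod-like cells, 0.0184 CPM of that class and below the limit of 3 counts.

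Ache (ENSMUSG00000023328), which ends the signal by cutting acetylcholine, had its highest levels in retinal neurons. The first was B28, the cluster with amacrine and ganglion markers, at 70.9, 58.3 and 59.9 CPM after tropicamide and 21.9, 82.3 and 51.2 CPM after saline. A UMI was present in 40 of 91 of these cells. Cone bipolar-like B19 and B20 followed at 35.1 and 18.9 CPM, cone-like B12 at 14.7 CPM (7.66 to 23.8) and rod bipolar-like B21 at 13.4 CPM (4.46 to 25.1), with overlap between each of these neighbours. Rod-like cells had 4.07 CPM and, because they are so many, 63.2% of all 701 Ache UMIs. Their 9 clusters ran from 2.84 to 12.1 CPM.

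Outside the neurons Ache was seen in pericyte-like B17 and B23 at 10.5 and 10.8 CPM, from 11 and 8 cells. In endothelial-like B8 and B9 no Ache UMI was counted, and retinal pigment epithelium-like B0 had 2 in 991 cells (0.576 CPM). In unnamed cluster B10, which was led by haemoglobin genes, 12 UMIs came from 2 cells of tropicamide library 1 and none from other libraries.

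Bche (ENSMUSG00000027792), butyrylcholinesterase, which also cuts acetylcholine, had 211 UMIs and shared some clusters with Ache, rod bipolar-like B21 among them. Müller glia-like B11 had 17.7, 12.6 and 12.1 CPM after tropicamide and 7.12, 13.6 and 13.9 CPM after saline, a mean of 12.8 ± 3.44 (SD, n = 6). Rod bipolar-like B21 had 18.8 CPM, ranging from 4.46 to 45.5 CPM over the libraries. Its mean of 17.02 CPM was 11.3 CPM without tropicamide library 1. Schwann-like B32, the myelinating glia of peripheral nerve, had 15.0 CPM from 7 UMIs. Within the endothelium Bche ran against the receptors, at 8.11 CPM in barrier-type B8, 2.37 in B9 and 1.33 in B13, though the ranges of B8 (1.36 to 19.8 CPM) and B9 (0 to 6.41 CPM) overlapped. Cluster B41 had 119.5 CPM, with a UMI in 15 of 35 cells. In B28, where Ache was highest, no Bche UMI was counted, which allows up to 2.58 CPM, and rod-like cells had 5 UMIs (0.0460 CPM).

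**Figure D3:**
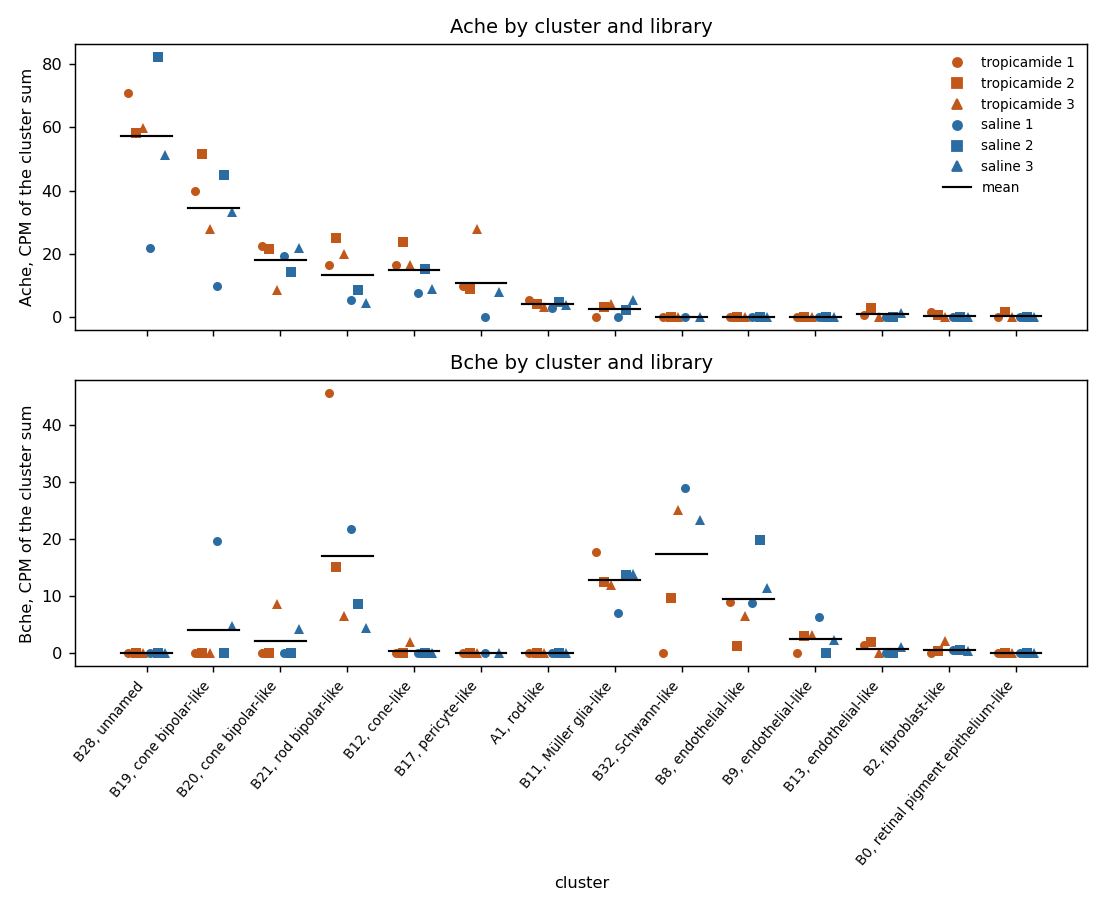
Ache (upper panel) and Bche (lower panel) by cluster (horizontal axis) as CPM of the cluster sum, with 1 point per library of at least 5 cells (orange tropicamide, blue saline) and the mean as a bar. Ache is highest in B28 at a mean of 57.4 CPM, where Bche is 0 in 6 of 6 libraries, and Bche is present in Müller glia-like B11 in 6 of 6 libraries.

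Synthesis and transport of acetylcholine were barely captured. Chat (ENSMUSG00000021919) had 4 UMIs, 2 in 1 cell of B28 and 1 each in 2 rod-like cells. Slc5a7 (ENSMUSG00000023945) had 6 UMIs, 5 in 3 cells of B28 and 1 in a rod-like cell. No cell of B28 had both. Slc18a3 (ENSMUSG00000100241) had none, which allows up to 0.0152 CPM over all kept cells. Slc18a3 lies inside the Chat gene on the same strand in the GENCODE annotation of build GRCm38, so a split of reads between them cannot be resolved from these counts. Of the 5 starburst amacrine markers, B28 held 51 UMIs of Megf11, 28 of Rnd3, 15 of Isl1, 12 of Megf10 and 0 of Fezf1. Melanocyte-like cells (B25, 113 cells) had no UMI of any of the 10 genes, which allows up to 7.61 CPM of each.

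By a fixed rule, the 3 genes whose levels ran most like each well-counted member were listed over the 18 classes and unnamed clusters of at least 100 cells, with Pearson's r of log2(CPM + 1) among 14255 genes. This cut left out B28 (91 cells), B40 (41 cells) and B41 (35 cells), which had high levels of Ache, Chrm3 and Bche in turn. B31 entered only as part of the cone bipolar-like class. The classes share the same 6 libraries and differ in depth, so r is a description. For Chrm2 these were Gatm (0.953), Cacna1e (0.903) and Ptprb (0.902). For Chrm3 the likeness was looser, with Nkain3 (0.742), Dgkz (0.735) and Tmtc2 (0.734). For Ache they were Ddx25 (0.864), Fgf12 (0.856) and Nrsn1 (0.836), and for Bche they were Ndnf (0.832), Ube2ql1 (0.815) and Sdk2 (0.813).

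The partners of these receptors were described from 5 lists. Transcript length and the counting of introns could shift the order of genes within a class given here. Of the G proteins and effectors, endothelial-like cells had highest levels for Gnai2 (1348 CPM), Plcb1 (932 CPM) and Plcb4 (471.5 CPM), and cone bipolar-like cells for Plcb4 (601), Gnao1 (585) and Prkcb (355). In smooth muscle-like cells the first of this list were Gnai2 (497 CPM), Plcb4 (343) and Itpr1 (299.7), the last a calcium channel of the endoplasmic reticulum. Of the nicotinic subunits, which form the ion channels opened by acetylcholine, cone bipolar-like cells had Chrna7 (125 CPM), Chrna6 (35.3) and Chrnb3 (34.3). B28 had Chrna7 (48.1), Chrnb3 (32.6) and Chrnb2 (24.9), and rod-like cells had Chrna7 (20.96). Ciliary or iris epithelium-like cells had Chrnb1 (35.8 CPM) and Chrnb4 (30.9), while endothelial-like cells had little beyond Chrnb1 (8.70). Among regulators of signal decay, Rgs9 led in rod-like cells (1031 CPM), Rgs7 in cone bipolar-like cells (605) and Rgs5, a pericyte marker, in smooth muscle-like cells (8062).

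Whether tropicamide changed the transcripts of its own targets was tested on counts summed per library in all cells together and in each of the 9 classes or unnamed clusters that had 30 cells or more per library. Each table was fitted whole with edgeR's quasi-likelihood test, and a gene was called at a Benjamini-Hochberg adjusted p under 0.05 over all genes tested in that table. Of the 10 members, 5 passed the low-count filter somewhere, in 11 pairs of gene and cells: Chrm1, Chrm2, Chrm3, Ache and Bche in all cells, Chrm2 and Chrm3 in endothelial-like cells, Chrm3 and Ache in rod-like cells, and Chrm3 in B1 and in Müller glia-like cells. None of the 11 was called by edgeR, and 1 had an unadjusted edgeR p under 0.05. DESeq2 called none either, but it gave no adjusted p for Chrm3 in rod-like cells, in B1 and in Müller glia-like cells. Those pairs could not be called by DESeq2. Beside this, edgeR called 0% of all genes tested in all cells, 0% in endothelial-like cells, 10.9% in rod-like cells, 0.0215% in B1 and 1.85% in Müller glia-like cells. In endothelial-like cells 757 of 10506 genes had an unadjusted p under 0.05, and in all cells 2842 of 20021.

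The pair with the small p was Chrm2 in endothelial-like cells. On the TMM-normalised CPM scale of the fit its level was 224, 98.2 and 116 after tropicamide, against 64.1, 78.9 and 71.7 after saline. The groups did not overlap, which held in this direction for 6.92% of the 10506 genes tested there. The log2 fold change was 1.07 ± 0.28 (SE, edgeR adjusted p = 0.371). Without tropicamide library 1 the log2 fold change was 0.58. Tropicamide library 1 also had the largest share of Plvap-rich B13 among its endothelial-like cells, 40.2%, against 29.9% and 14.5% in the other tropicamide libraries and 16.1%, 14.9% and 28.1% in the saline libraries.

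Within single clusters, chosen after these values were seen, Chrm2 in B9 was 215, 95.2 and 116 TMM-normalised CPM after tropicamide, against 69.8, 46.5 and 40.9 after saline. The saline values rest on 24, 17 and 86 cells. Here too the groups did not overlap, as for 6.02% of the 5833 genes tested in this direction, and the log2 fold change was 1.51 ± 0.38 (SE, edgeR adjusted p = 0.500), beside 0.0686% of genes called. In B13 the values were 334, 176 and 325 against 216, 261 and 177.5, which overlapped, at a log2 fold change of 0.43 ± 0.26 (edgeR adjusted p = 0.968), beside 0.0135% of genes called. The difference between B9 and B13 was not tested. In endothelial-like cells the summed level of 8 pericyte markers was 599.7 to 1198 CPM after tropicamide and 23.3 to 574 CPM after saline, with 8 of 8 detected in each library except saline library 2, where Kcnj8, Pdgfrb, Cspg4, Notch3 and Higd1b were at 0. The 9 fibroblast markers summed to 348 to 1179 CPM after tropicamide and 167 to 321 CPM after saline, with 7 to 9 detected. The 8 retinal pigment epithelium markers summed to 147.8 to 168 against 29.98 to 76.7 CPM, with 3 to 8 detected, and the 6 erythroid markers to 23.6 to 103 against 4.91 to 20.01 CPM, with 2 to 5 detected. Single genes weighed heavily in some of these sums. With the 6 libraries summed, Rgs5 stood at 1001 CPM in B13, and the next pericyte marker, Abcc9, at 127 CPM. Of the retinal pigment epithelium markers, Ttr alone was at 104.9 CPM in B13 and 79.6 CPM in B9. Within B9 the fibroblast markers summed to 336 to 2791 CPM after tropicamide and 115 to 283 CPM after saline (4 to 9 detected), those of the retinal pigment epithelium to 90.8 to 163 against 38.4 to 72.0 CPM (2 to 6 detected, with Rpe65 at 0 in the 3 saline libraries), and the erythroid ones to 33.02 to 104 against 0 to 7.08 CPM, with all 6 at 0 in saline libraries 1 and 2. Smooth muscle markers in B9 ran the other way, at 12.8 to 33.02 against 43.2 to 199 CPM, with Cnn1 and Actg2 at 0 in all 6 libraries. The pericyte markers in B9 overlapped, at 82.9 to 264 against 14.4 to 186 CPM. Chrm2 was at 33.4 CPM in pericyte-like B17, where 5 of 169 cells held 32 of its 35 UMIs. It was at 0.156 CPM in fibroblast-like B2 and 0.576 CPM in retinal pigment epithelium-like B0. The part of these markers and of the cluster shares in the result was not tested.

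No other pair had an unadjusted p under 0.05. Chrm3 in endothelial-like cells had 132, 147.5 and 97.3 TMM-normalised CPM after tropicamide and 103, 154 and 126 after saline, a log2 fold change of 0.04 ± 0.17 (SE). In B1 Chrm3 changed by -0.31 ± 0.26, in Müller glia-like cells by 0.13 ± 0.41 and in rod-like cells by 0.39 ± 0.40, with overlapping groups in each. The Müller glia-like class differed in its make-up between the groups. Cluster B16, with no UMI of any member, was 44.8% to 50.6% of it after tropicamide and 23.4% to 25.8% after saline, and the median UMIs per cell of the class were 1318 to 2450 and 5458 to 7459. Within B11, where all the Chrm3 UMIs of this class lay, the Chrm3 levels given above overlapped too. The part of the make-up and depth in the value for the class was not tested. Ache in rod-like cells was 4.48, 4.83 and 4.25 after tropicamide, against 2.85, 4.24 and 3.75 after saline, a log2 fold change of 0.32 ± 0.18 (edgeR adjusted p = 0.282). These groups were separated by a hair on this scale, as for 15.7% of the genes tested there in this direction, and overlapped on plain CPM, where tropicamide library 3 had 4.19 and saline library 2 had 4.25. In all cells summed, Chrm2 changed by 1.57 ± 0.69, Chrm1 by 0.52 ± 0.28, Chrm3 by 0.35 ± 0.33, Ache by 0.33 ± 0.22 and Bche by 0.07 ± 0.40. The Chrm2 value was 0.72 without tropicamide library 1 and 2.33 without saline library 3. The number of endothelial-like cells, 271, 268 and 124 after tropicamide and 87, 47 and 260 after saline, enters the Chrm2 value in all cells, and in a sum of all cells more cells of a type and more RNA per cell cannot be told apart.

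**Figure D4:**
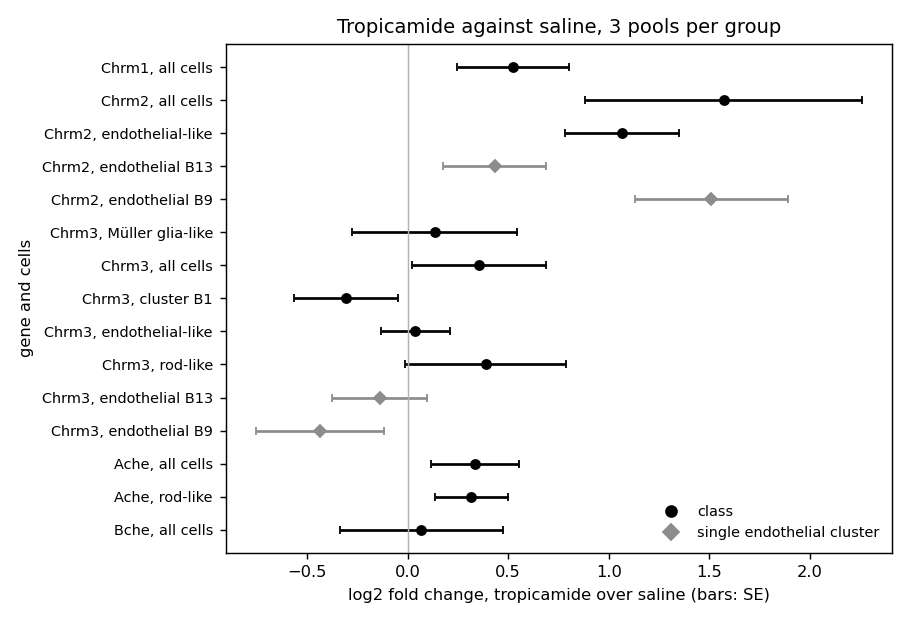
Log2 fold change of tropicamide over saline (horizontal axis, bars are SE) for the 11 pairs of gene and cells that were tested (black) and for Chrm2 and Chrm3 in the endothelial-like clusters B9 and B13 (grey diamonds). Chrm2 lies highest, at 1.57 in all cells, 1.51 in B9 and 1.07 in endothelial-like cells, and none of the values shown passed the adjusted threshold.

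Of the 84 other pathway genes, calls were made in rod-like cells alone among the 10 tables, 4 of 53 tested, 1 higher and 3 lower, beside 5.92% of all tested genes called higher and 4.97% lower there. Chka, choline kinase, fell from 115, 113 and 115 TMM-normalised CPM after saline to 95.9, 93.8 and 102 after tropicamide, a log2 fold change of -0.23 ± 0.05 (edgeR adjusted p = 0.0164). Pcyt1a, the next enzyme towards phosphatidylcholine, fell by 0.25 on the log2 scale (edgeR adjusted p = 0.0481), and Chrna7, the alpha7 nicotinic subunit, fell from a mean of 23.5 to 18.6 (log2 fold change -0.34 ± 0.08, edgeR adjusted p = 0.0270). Kcnq3, a potassium channel subunit closed by M1 and M3 signalling in neurons, rose by 1.47 ± 0.34 on the log2 scale (edgeR adjusted p = 0.0217) but at a level of 1.01 against 0.363. Chka lost its call without tropicamide library 1 or 2 (edgeR adjusted p = 0.0603 and 0.0809), Chrna7 without tropicamide library 1, 2 or 3 or saline library 1 (0.0531, 0.121, 0.0742 and 0.0936), and Kcnq3 without any single library but saline 3 (0.0547 to 0.0803). Pcyt1a lost it without any single library but saline 1 (0.0591 to 0.156). With DESeq2, 2 of these 4 were called, Chka and Chrna7, while Pcyt1a was not (DESeq2 adjusted p = 0.0694) and Kcnq3 was given no adjusted p. Among all genes with a DESeq2 adjusted p in rod-like cells, 1414 of 14469 were called. By list, 2 of 12 tested genes of choline uptake and metabolism were lower, 1 of 5 nicotinic subunits was lower, 1 of 18 G proteins and effectors was higher, and none of 8 esterase anchors and receptor modulators or of 10 desensitisation genes was called. The list medians lay between -0.10 and 0.17 on the log2 scale, and the median of all 16323 tested genes was -0.0045.

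The rod-like class also differed between the groups in its make-up. Cluster A0 was 32.8% to 44.1% of it after tropicamide and 18.5% to 27.4% after saline, and A1 was 22.3% to 24.3% and 30.5% to 38.01%. In these cells the retinal pigment epithelium markers summed to 117.5 to 272 CPM after tropicamide and 39.2 to 73.9 CPM after saline, and the fibroblast markers to 328 to 450 against 161 to 311 CPM. The erythroid markers, which include the haemoglobin genes, summed to 52.4 to 1549 against 12.8 to 29.5 CPM, and the smooth muscle markers to 237.5 to 261 against 274 to 318 CPM. At least 7 of 8, 9 of 9, 5 of 6 and 8 of 8 of these markers were detected in each library. The part of the make-up and of this RNA in the rod results was not tested. In fibroblast-like cells, retinal pigment epithelium-like cells, B5, cone-like cells and B10, where edgeR called 0.00761%, 0.112%, 0.0934%, 0.0137% and 0% of all genes, no member passed the low-count filter and edgeR called no pathway gene. DESeq2 called 3 in fibroblast-like cells, Plcb4 (log2 fold change -0.49), Kcnq3 (-1.15) and Grk5 (-0.75), and 2 in all cells, Rapsn (1.199) and Flvcr2 (0.79). Of all genes given an adjusted p by DESeq2 it called 153 of 5378 in fibroblast-like cells and 313 of 20123 in all cells.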

How the data were processed

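UMI counts per gene and cell barcode were deposited by the authors as raw counts. Per the file headers the software was Cell Ranger 8.0.1, and per the submitters' processing notes the aligner was STAR and the build GRCm39. The sources used here give neither the annotation release nor the intron counting. The extract protocol in the labels concerns bone and was set aside. Libraries held 30761887 to 49477707 UMIs, with medians of 2188 to 2528 per barcode, so a share of cells with a UMI depends on depth.

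Barcodes were kept from 500 UMIs and 300 genes upward if no more than 20% of UMIs were mitochondrial, and 5922 doublets scored per library against simulated ones (50 neighbours, 0.8% per 1000 barcodes) were removed. Clusters came from 2000 variable genes, 30 principal components, 20 neighbours and Leiden at resolution 1, separately for rods and the rest (igraph 0.11.9, leidenalg 0.10.2). Names required a marker score of 0.7, 3 detected markers and a lead of 0.3, or 2 markers among the top 10 genes. These limits, and a list of 8 clusters left unnamed, were set after the clusters were seen. Library ranges use libraries with at least 5 cells of a cluster. Limits of a count of 0 are 3 counts and cover counting error only.

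Sums per library were tested with edgeR 4.0.16 in R 4.3.3 (TMM, filterByExpr). DESeq2 1.42.0, other filters, a replicate block and leaving out each library were alternatives. The edgeR test was checked on simulated counts with known changes. It recovered 65.6% of 2-fold changes in endothelial-like cells, 82.1% in rod-like cells, 72.1% in B1, 49.2% in Müller glia-like cells and 68.3% in all cells. Of 1.5-fold changes it recovered 17.6%, 70.4%, 19%, 7.79% and 10% in the same order. Between 2.54% (endothelial-like) and 9.38% (Müller glia-like) of its calls were false. The changed genes were drawn from all tested genes, so recovery of a single member is not given. The members, the 5 pathway lists and the 30 marker lists were chosen with earlier results of these data known. All members are named, pathway genes when called (up to 4 per list by p) or as the 3 highest of a list, and like genes by r.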

Additional observations from a re-analysis of the deposited data

How the results depend on the processing

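None of the 11 member results became a call under DESeq2, DESeq2 size factors, the replicate block, retained doublets, a stricter cell filter (from 1000 UMIs and 500 genes, up to 10% mitochondrial) or any library left out. For Chrm3 in rod-like cells, in B1 and in Müller glia-like cells DESeq2 gave no adjusted p, so it could not call them. Without the low-count filter 1 was called, Chrm2 in endothelial-like cells (log2 fold change 1.09, edgeR adjusted p = 1.2e-08), and in B9 it was 1.56 (edgeR adjusted p = 0.00256). Beside this, that setting called 199 of 20796 genes in endothelial-like cells, against 0 of 10506 with the filter. In B9 it called 56 of 17164, against 4 of 5833. The cause was not tested. For endothelial-like Chrm2 the adjusted p under the other alternatives ran from 0.0822 (DESeq2) to 1.00, and leaving out single libraries gave log2 fold changes of 0.58 to 1.30. Deviations from the group mean correlated at -0.258 to 0.085 between libraries of the same number in rod-like, fibroblast-like and endothelial-like cells. Within a group of 3 libraries such deviations sum to 0, so these values cannot settle whether the numbers pair the libraries. With the replicate block 0 members and 4 pathway genes were called. That setting called 1403 of 16323 genes in rod-like cells and 25 of 5350 in retinal pigment epithelium-like cells. Pcyt1a in rod-like cells lost its call (edgeR adjusted p = 0.0690), Chrnb4 in retinal pigment epithelium-like cells gained one (log2 fold change -1.83, edgeR adjusted p = 0.0332), and Chrm3 in endothelial-like cells reversed to -0.0367. It also reversed without doublet removal (-0.12). Pathway calls numbered 4, against 7 with DESeq2 (2 in rod-like cells, 2 in all cells and 3 in fibroblast-like cells), 15 without the low-count filter and 0 to 8 with single libraries left out. In rod-like cells all called genes numbered 1779 of 16323, against 2345 of 26114 without that filter and 423 to 2493 with single libraries left out. The cause was not tested. Leaving out single libraries moved the log2 fold change of Bche in all cells from -0.36 to 0.32, of Chrm3 in endothelial-like cells from -0.10 to 0.17, in Müller glia-like cells from -0.62 to 0.51 and in B13 from -0.35 to 0.0522, so these have no stable direction. Without tropicamide library 1 the mean level of Chrm2 in B20 went from 36.8 to 21.6 CPM and of Bche in B21 from 17.02 to 11.3 CPM. Chat, Slc5a7, Slc18a3, Chrm4 and Chrm5 did not pass the low-count filter in any class and were not tested.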
